A study of Mus musculus with 6 samples.

Results

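The 10 genes described here, Hand1, Hand2, Twist1, Twist2, Tbx20, Tbx3, Foxf1, Prrx1, Pitx1 and Wt1, encode transcription factors of embryonic mesoderm. They were chosen by name, and all 10 have a probe set with 1 gene symbol on the array, out of 19938 genes with such a probe set. Foxf1 has a further one, which makes 11 of the 35557 probe sets. The arrays measured total RNA of mouse yolk sacs at embryonic day 9.5, each dissected from an individual embryo. Of the 6 arrays, 3 came from embryos labelled Tnrc6a (GW182) mutant, given in the series' design as GW182gt/gt, and 3 from wild-type littermates. The labels name no Cre, no further allele and no strain for either genotype, and they add "mixed" to both genotypes without an explanation. Values are log2 signals as deposited, so a difference of 1 is a 2-fold change, and levels of different genes are not compared because probes differ in their response.

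The yolk sac wall is made of an outer visceral endoderm and an inner extraembryonic mesoderm, which forms mesothelium, mesenchyme, smooth muscle, endothelium and blood. BMP signals and the Indian hedgehog signal of the endoderm act on this mesoderm, and Foxf1 and Hand1 are needed in mice for it to form a working vascular wall. Basic helix-loop-helix (bHLH) factors such as Hand and Twist proteins bind E-box DNA as dimers with E proteins, while Id proteins hold E proteins away from DNA. GW182, the product of Tnrc6a, links Argonaute and its microRNA to the decay of target mRNAs.

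None of the 10 factors passed the test between mutant and wild-type yolk sacs, and neither did Tnrc6a itself or any other of the 16387 tested probe sets. Tbx3 was 1.16-fold higher and Wt1 1.16-fold lower in the mutants, and these were the members whose genotypes did not overlap. Groups did not overlap for 8.55% of all tested probe sets. For the other 8 factors the larger of the group SDs exceeded the difference between genotypes, as it did for 81.3% of all tested probe sets. The spread of the members over the libraries had a shape: Twist2, Prrx1, Twist1, Pitx1, Foxf1 and Tbx20 were highest in mutant 3, and for most of these wild type 2 came next. Mutant 3 was the highest library for 25.6% of all tested probe sets.

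Some libraries stood apart before these genes were considered. Tnrc6a read 7.81, 5.33 and 5.20 in mutants 1 to 3, against 8.40, 7.62 and 8.29 in wild types 1 to 3. The library labelled mutant 1 thus lay above wild type 2 and goes against its label, so each direction given for the mutants includes a library whose Tnrc6a level is near wild type. Tnrc6a differed by −1.99 (SE 0.65, limma p = 0.0167, adjusted p = 0.999, exact permutation p = 0.2). Failing the test is therefore no sign that a gene was unchanged. Markers of parietal endoderm, which lines the outer membrane next to the yolk sac, were highest in wild type 2 for 9 of 9 genes. Their mean there was 1.33 above the wild-type mean, against −0.69 to −0.30 in the other 5 libraries. Col4a1, a basement membrane collagen gene and the lowest in p of that list (unadjusted limma p of 0.339), read 8.94 to 9.01 in the mutants, against 8.86, 10.59 and 8.82 in wild types 1 to 3. The female-specific RNA Xist read 9.63 or more in mutants 1 and 3 and 3.74 in mutant 2, against 9.87, 3.58 and 3.90 in wild types 1 to 3, so both sex patterns occurred in each genotype. Markers of visceral endoderm such as Afp and Ttr were bright on every array, between 12.56 and 12.71.

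Hand1 encodes a bHLH factor of extraembryonic mesoderm, heart and trophoblast giant cells. It read 7.34, 7.62 and 7.31 in mutants 1 to 3, against 7.01, 7.53 and 7.02 in wild types 1 to 3. Wild types 1 and 3 were the lowest libraries, and wild type 2 lay above mutants 1 and 3, so the groups overlapped. The mean was 7.42 ± 0.17 (SD, n = 3) in the mutants and 7.19 ± 0.30 (SD, n = 3) in wild type. The log2 difference was 0.23 (SE 0.16) with a limma p of 0.190, an adjusted p of 0.999 and an exact permutation p of 0.3. The adjusted limma p was 0.999 for each of the 10 factors with all 6 arrays, and exact two-sided permutation tests of 3 against 3 arrays cannot go below 0.1. Without wild type 2 the difference was 0.40, at an unadjusted limma p of 0.0132 and an adjusted p of 0.975. Wild type 2 was the highest wild-type library for Hand1, so leaving it out had to widen the difference. The list mean of the trophoblast and decidua markers was also highest in wild type 2, at 1.15 above the wild-type mean, although only Prl4a1 and Rhox9 of its 5 tested genes had their highest library there. Prl4a1, of the prolactin family and the lowest in p, read 3.51, 5.14 and 4.12 in mutants 1 to 3, against 4.91, 7.13 and 4.06 in wild types 1 to 3 (unadjusted limma p of 0.184). Mutant 2, the highest library for Hand1, was next, at 0.65, and there the mean rested on Prl8a2, another prolactin family gene, at 9.11 in mutant 2, against 7.44 in wild type 2 and at most 4.09 in the other 4 libraries. Of the other tested genes, Prl4a1, Ascl2 and Plac1 lay below their wild-type means in mutant 2. For Prl4a1 and Plac1 those means were raised by wild type 2. Mutant 2 came next after wild type 2 for Prl4a1 and for Rhox9, at 6.23. For Plac1 it read 7.39, against 7.19 and 7.31 in wild types 1 and 3, and for Ascl2 it was the lowest library, at 4.46. The summed signal of this list (linear scale) ran from 259 to 854 in the mutants and from 263 to 865 in wild type, and its part in the Hand1 values was not tested. Of its 10 genes on the array, 5 were too dim to be tested, among them the spongiotrophoblast marker Tpbpa.

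Hand2, the paralogue of Hand1 in heart, limb and branchial arches, read 5.99, 6.05 and 6.29 in mutants 1 to 3, against 5.85, 6.34 and 5.92 in wild types 1 to 3. Its highest library was wild type 2 and its next highest mutant 3. The difference between genotypes was 0.08 (SE 0.15, 95% interval −0.27 to 0.42, limma p = 0.623, exact permutation p = 0.6), and it took the other sign, −0.016, without mutant 3. The order of libraries thus differed between the paralogues: mutant 2 led for Hand1 and wild type 2 for Hand2.

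Twist2 encodes a bHLH factor of mesenchyme and dermis and had the widest range of the members over the 6 arrays, 1.97. It read 6.36, 6.50 and 8.06 in mutants 1 to 3, against 6.09, 7.02 and 6.25 in wild types 1 to 3. Mutant 3 stood 3.10-fold above the mean of mutants 1 and 2, and wild type 2 stood 1.80-fold above the mean of wild types 1 and 3. The difference between genotypes was 0.52 (SE 0.46, 95% interval −0.55 to 1.58, limma p = 0.294, exact permutation p = 0.5), and it was −0.029 without mutant 3. Twist1, the paralogue needed for cranial and limb mesenchyme, read 6.75, 6.34 and 7.40 in mutants 1 to 3, against 6.56, 6.60 and 6.80 in wild types 1 to 3. Mutant 3 was again the highest library, 1.82-fold above the mean of mutants 1 and 2, but wild type 2 was not raised and mutant 2 was the lowest. Its difference was 0.18 (SE 0.24, limma p = 0.487, exact permutation p = 0.8), and −0.11 without mutant 3.

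Prrx1, a homeodomain factor of limb and craniofacial mesenchyme, was dim, at 4.30, 4.47 and 5.42 in mutants 1 to 3, against 4.25, 4.80 and 4.29 in wild types 1 to 3. Its libraries fell in the same order as those of Twist2, with mutant 3 first, wild type 2 next and wild type 1 last. Mutant 3 lay 2.05-fold above the mean of mutants 1 and 2. The difference between genotypes was 0.28 (SE 0.29, limma p = 0.363, exact permutation p = 0.5), and −0.059 without mutant 3. Of the 45 pairs of members, Twist2 and Prrx1 were the closest, with Pearson r = 0.996 over the 6 arrays (0.888 without the 2 arrays farthest from the Twist2 median, Spearman 1.00), while pairs ran from −0.55 to 0.996 with a median of 0.57. These correlations describe 6 shared arrays, and how far they rest on mutant 3 and wild type 2 differed between pairs. Without those libraries r went from 0.70 to −0.80 for Twist2 and Pitx1. For Hand2 and Twist2 it went from 0.85 to 0.998.

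The promoters of Twist2, Prrx1, Hand2 and Tbx20 are shown because these genes share the high libraries mutant 3 and wild type 2. RefSeq (GRCm38.p6) start regions, 250 bases before to 50 after the start, were found for 5 of the 10 members, and capitals mark the E-box CANNTG and the homeodomain core TAATTA, each sought on both strands. Twist2 lies at chr1:91801211-91801510 on the plus strand, Prrx1 at chr1:163313601-163313900 on the minus strand, Hand2 at chr8:57320733-57321032 on the plus strand and Tbx20 at chr9:24774254-24774553 on the minus strand.
Twist2: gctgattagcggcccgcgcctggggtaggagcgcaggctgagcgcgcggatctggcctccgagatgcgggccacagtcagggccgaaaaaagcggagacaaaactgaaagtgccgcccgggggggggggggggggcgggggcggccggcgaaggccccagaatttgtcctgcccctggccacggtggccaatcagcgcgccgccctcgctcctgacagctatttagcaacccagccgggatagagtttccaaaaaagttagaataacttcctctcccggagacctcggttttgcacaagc
Prrx1: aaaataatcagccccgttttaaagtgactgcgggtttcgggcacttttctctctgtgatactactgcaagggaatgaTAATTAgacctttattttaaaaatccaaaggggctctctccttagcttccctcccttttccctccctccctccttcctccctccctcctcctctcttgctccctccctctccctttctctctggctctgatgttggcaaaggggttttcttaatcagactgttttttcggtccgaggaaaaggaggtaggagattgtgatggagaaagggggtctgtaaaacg
Hand2: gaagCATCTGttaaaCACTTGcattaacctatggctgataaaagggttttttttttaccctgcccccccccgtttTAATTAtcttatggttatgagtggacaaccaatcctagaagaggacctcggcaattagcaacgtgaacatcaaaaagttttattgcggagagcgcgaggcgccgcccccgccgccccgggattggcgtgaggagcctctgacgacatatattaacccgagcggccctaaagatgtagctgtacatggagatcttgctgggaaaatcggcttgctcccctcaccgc
Tbx20: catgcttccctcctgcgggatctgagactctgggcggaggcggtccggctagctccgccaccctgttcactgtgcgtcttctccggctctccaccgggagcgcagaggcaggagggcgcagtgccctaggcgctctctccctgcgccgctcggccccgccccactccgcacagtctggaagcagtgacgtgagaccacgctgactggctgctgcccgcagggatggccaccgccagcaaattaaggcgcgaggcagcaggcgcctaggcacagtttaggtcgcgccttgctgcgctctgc

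The Twist2 and Tbx20 windows held neither motif, the Prrx1 window held TAATTA at 173 bases before the start, and the Hand2 window held 2 E-boxes and 1 copy of the homeodomain core. That core was present in 2 of the 5 member windows, against 5.29% of 32851 mouse promoter windows of the same length. CANNTG was present in 1 of the 5, against 72.3% of all windows. The motifs were chosen for the protein classes of the members, a match is no binding site, and no binding was measured. The windows also differed in base composition, with a GC content of 68.3% for Tbx20, 64.7% for Twist2, 50.3% for Hand2 and 47.7% for Prrx1, against a median of 52.7% over all windows.

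**Figure D1:**
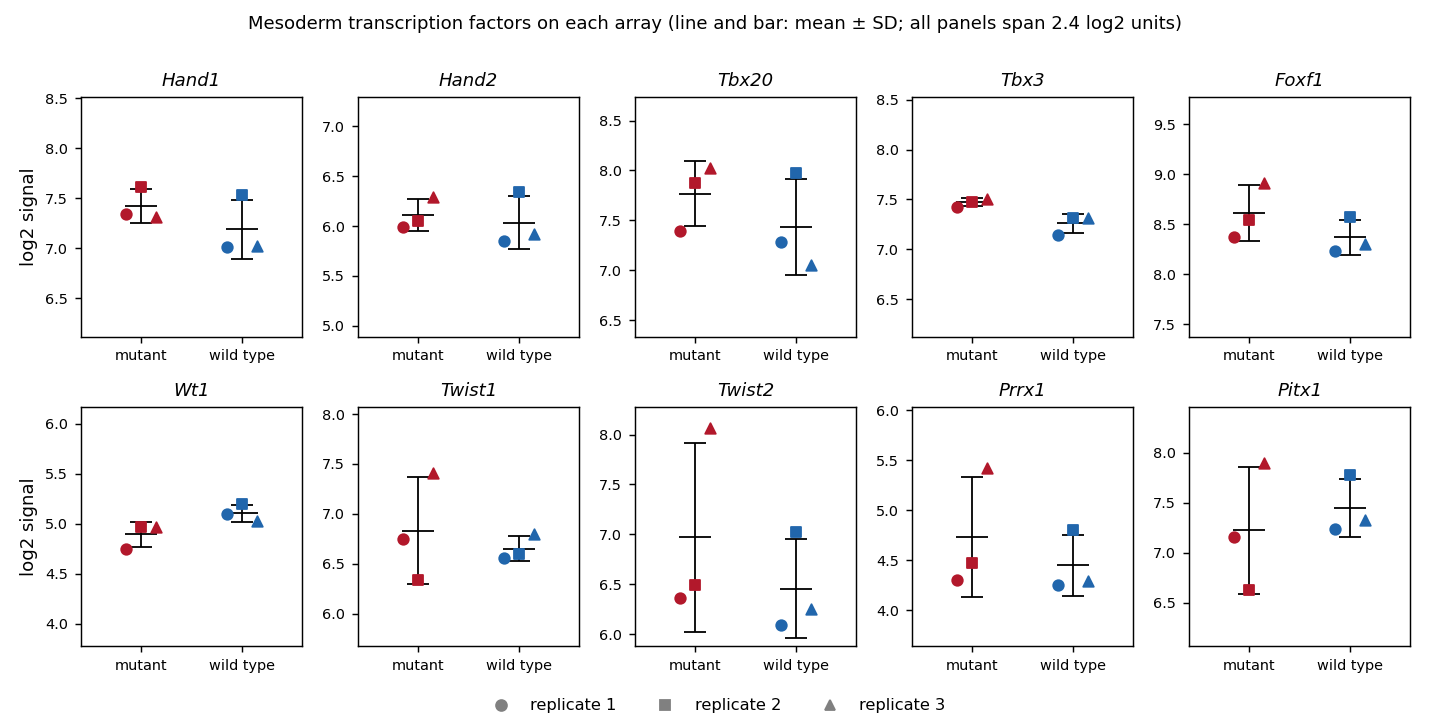
Log2 signal (y axis) of the 10 factors on each array, mutants left (red) and wild types right (blue), with 1 symbol for each replicate number and the mean ± SD in black. Mutant 3 (red triangle) is highest for 7 of the 10 factors, reaching 8.06 for Twist2, and the genotypes are separate for Tbx3 and Wt1.

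Foxf1 encodes a forkhead factor of hedgehog-responsive mesenchyme. Its brighter probe set read 8.37, 8.54 and 8.92 in mutants 1 to 3, against 8.23, 8.57 and 8.30 in wild types 1 to 3. Its libraries had the same order as those of Twist2 and Prrx1 over a narrower range of 0.68. The difference between genotypes was 0.24 (SE 0.16, limma p = 0.164, exact permutation p = 0.3) at this probe set and 0.21 at the dimmer one, where mutant 3 was also the highest library, at 8.01. Without mutant 3 the first of these was 0.088. With wild type 2 and the library labelled mutant 1 left out together it was 0.46, at an unadjusted limma p of 0.0234 and an adjusted p of 0.615. That choice removes the lowest mutant and the highest wild type for Foxf1, which had to widen the difference.

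Tbx20, a T-box factor of heart and lateral mesoderm, read 7.40, 7.88 and 8.02 in mutants 1 to 3, against 7.28, 7.97 and 7.05 in wild types 1 to 3. Mutants 2 and 3 and wild type 2 formed a high set and the other 3 libraries a low one, so genotype did not separate them. The difference was 0.33 (SE 0.26, 95% interval −0.26 to 0.93, limma p = 0.230, exact permutation p = 0.3). Without wild type 2, its highest wild-type library, the difference was 0.60, at an unadjusted limma p of 0.0181 and an adjusted p of 0.975. With the library labelled mutant 1, its lowest mutant, left out as well, it was 0.79, at an unadjusted limma p of 0.000982 and an adjusted p of 0.477. Both choices had to widen the difference.

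Tbx3, a T-box repressor of limb, heart and mammary development, behaved otherwise. It read 7.43, 7.48 and 7.51 in mutants 1 to 3, against 7.15, 7.31 and 7.32 in wild types 1 to 3. Every mutant library lay above every wild-type library, and the library labelled mutant 1 lay with the other mutants. The mean was 7.47 ± 0.040 (SD, n = 3) in the mutants and 7.26 ± 0.098 (SD, n = 3) in wild type, a 1.16-fold difference. The log2 difference was 0.21 (SE 0.083, 95% interval 0.017 to 0.41), with a limma p of 0.0368 and an adjusted p of 0.999. Tbx3 was the 1 member of 10 with an unadjusted p under 0.05, where 3.53% of all 16387 tested probe sets had one. The exact permutation p was 0.1, the smallest possible here. Over the alternatives the Tbx3 difference ran from 0.15 to 0.26, without a change of sign and with an unadjusted limma p of up to 0.134.

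Wt1 encodes a zinc finger factor of mesothelium and kidney. It was dim and read 4.75, 4.96 and 4.97 in mutants 1 to 3, against 5.09, 5.20 and 5.03 in wild types 1 to 3. All mutant libraries lay below all wild-type libraries, the gap between mutant 3 and wild type 3 being the narrowest. The mean was 4.89 ± 0.13 (SD, n = 3) in the mutants and 5.11 ± 0.085 (SD, n = 3) in wild type. The difference was −0.21 (SE 0.096, 95% interval −0.43 to 0.012, limma p = 0.0603, adjusted p = 0.999, exact permutation p = 0.1). Without the library labelled mutant 1, the lowest, it was −0.14, and −0.092 without wild type 2, the highest, as well. Groups that do not overlap were found for 2 of the 10 members, against 8.55% of all tested probe sets. Of 6 genes listed as mesothelium markers, 5 had a higher mean in the mutants: Upk3b, Upk1b and the keratin genes Krt8, Krt18 and Krt19. The mesothelin gene Msln had a lower one, at a difference of −0.069, and was dim, at 4.27 to 4.52. The median difference of the 6 was 0.10, with none past the test and all groups overlapping. The lowest in p was the keratin gene Krt18, with a difference of 0.092 at an unadjusted limma p of 0.413. The part of other epithelium, such as the visceral endoderm, in the keratin values was not tested.

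Pitx1, a homeodomain factor of hindlimb and pituitary, read 7.15, 6.63 and 7.89 in mutants 1 to 3, against 7.24, 7.78 and 7.32 in wild types 1 to 3. The mutants held both the highest and the lowest library. The difference was −0.22 (SE 0.30, limma p = 0.487, exact permutation p = 0.6). It was 0.076 without mutant 2 and −0.56 without mutant 3, at an unadjusted limma p of 0.0391 and an adjusted p of 0.592, so its sign depended on which mutant was kept.

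**Figure D2:**
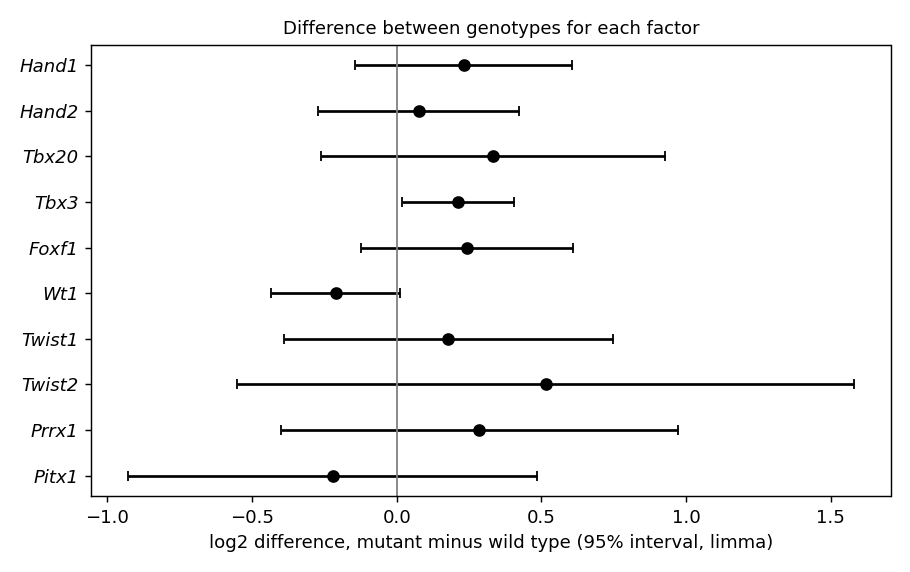
Log2 difference between genotypes, mutant minus wild type (x axis), for each of the 10 factors (y axis), with the 95% interval of the limma fit. The interval lies above 0 for Tbx3, at 0.017 to 0.41, reaches 0.012 for Wt1 and spans 0 widely for Twist2 and Pitx1.

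Over the 10 factors, 8 had a higher mean in the mutants and 2 a lower one. The median difference was 0.22, beside 0.0063 over all tested probe sets, of which 52.4% were higher in the mutants. None of the 10 passed an adjusted p of 0.05, where 0% of all tested probe sets did (0 of 16387, with 579 at an unadjusted p under 0.05). The median over the members was −0.023 without mutant 3, and 0.29 without wild type 2. Because the tissue was measured in bulk, fewer cells of a type and less RNA per cell cannot be told apart.

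The members varied more between libraries than most genes did. Their median range over the 6 arrays was 0.83, beside 0.35 over all tested probe sets, and Twist2, Pitx1, Prrx1 and Twist1 had a range of at least 1, which 3.26% of all tested probe sets had. A wide range was not particular to the members. Mesenchyme and smooth muscle markers ran from 0.27 for Col6a1 to 2.76 for Vcam1, with Tagln at 2.48, and the mesoderm factor gene Tbx4 had a range of 3.44. Mutant 3 was the highest library for 7 of the 10, beside 25.6% of all tested probe sets. Mutant 3 and wild type 2 were the highest pair for Hand2, Tbx20, Foxf1, Twist2, Prrx1 and Pitx1, which is 6 of 10, beside 13.8% of all tested probe sets. The difference between genotypes was below the larger of the group SDs for 8 of 10 members and for 81.3% of all tested probe sets, so in this respect the members resembled the rest. The range was not shared by the nearest tested genes on the chromosome: of 20 such neighbours, 1 had a range of at least 1 (Sap30, next to Hand2), and their median range was 0.36. Mutant 3 was the highest library for 5 of the 20. Kifap3, next to Prrx1, read 7.33 in mutant 3 and next 7.20 in wild type 2 (Pearson r = 0.947 with Prrx1). Macroh2a1 and Pcbd2, next to Pitx1, had the same highest pair. Sap30 and Herpud2, next to Tbx20, had another library second.

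By a rule on pattern over the 6 arrays, the genes most like the mean of the members, among 466 with a range of at least 1, were the growth factor gene Tgfb2 (r = 0.996), the Wnt ligand gene Wnt5a (r = 0.996) and the gap junction gene Gjc1 (r = 0.995). Without the 2 arrays farthest from the median, r was 0.967, 0.958 and 0.957. Wnt5a read 5.83, 5.89 and 7.07 in mutants 1 to 3, against 5.44, 6.53 and 5.67 in wild types 1 to 3. For Hand2 the closest were Prss35 (r = 0.993), Tmsb4x (r = 0.983), which encodes an actin-binding peptide, and Pmepa1 (r = 0.983). For Hand1 they were different genes, Stox2 (r = 0.966), the kinase gene Sgk2 (r = 0.960) and Clmp (r = 0.919). The highest r values among many genes over 6 arrays were picked, so they describe these libraries only.

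Genes of other mesoderm derivatives were set beside Twist2 and Prrx1 after their values were seen. Tbx4, a T-box gene of allantois and hindlimb, read 4.30, 3.96 and 7.39 in mutants 1 to 3, against 4.10, 5.99 and 4.23 in wild types 1 to 3. Vcam1, an adhesion molecule of the allantois that binds the chorion, read 4.64, 4.95 and 7.40 in mutants 1 to 3, against 4.76, 6.51 and 4.90 in wild types 1 to 3. Both were high in mutant 3 and wild type 2 and low in the other 4 libraries, as Twist2 and Prrx1 were. The muscle actin gene Actc1 showed the same libraries high, at 7.03, 7.04 and 9.92 in mutants 1 to 3, against 6.50, 9.55 and 7.16 in wild types 1 to 3. Actc1 is 1 of the 6 heart muscle markers, whose list mean was −0.095, −0.17 and 0.46 in mutants 1 to 3, against −0.14, 0.24 and −0.097 in wild types 1 to 3. Of these 6 genes, 3 were highest in mutant 3: Actc1, Tnnt2 and Myl4. Tnnt2, a troponin gene and the lowest in p of the list (unadjusted limma p of 0.171), read 5.65 to 5.80 in the mutants, against 5.57 to 5.66 in wild type. Myl4, an atrial myosin light chain gene, read 4.13, 4.19 and 4.70 in mutants 1 to 3, against 4.41, 4.17 and 4.25 in wild types 1 to 3. Wild type 2 was the lowest library for Tnnt2 and the lowest wild type for Myl4, unlike for Actc1. Myl7, Myh6 and Nppa were highest in other libraries and dim, near the filter of 4.29: they lay within 4.22 to 4.70 in the mutants and 4.45 to 4.76 in wild type. The cardiac factor gene Nkx2-5 lay between 5.94 and 6.19. Other factor genes of the heart differed from it and from each other. Tbx5, too dim to be tested, was highest in mutant 3, at 5.50, and next in wild type 2, at 4.63. Isl1 was highest in mutant 3, at 5.09, while Gata4 was lowest there, at 7.73. Mutant 3 was not high in markers of the neural tube and neural crest (−0.023 relative to the wild-type mean, 4 of 11 genes bright enough to test) or of somite and limb (−0.042, 3 of 6 genes). The lowest in p of these lists were the neural crest gene Sox10, with a difference of 0.11 at an unadjusted limma p of 0.343, and the sclerotome gene Pax9, with −0.051 at 0.533. The somite and limb mean rested on Pax1, Pax9 and Fgf8 only, and Lhx9 of that list was too dim to test. Of the members with a role in limb, Twist1, Prrx1, Pitx1 and Tbx3 were highest in mutant 3, as Tbx4 was, and Hand2 in wild type 2. The part of tissue beside the yolk sac wall in the Twist2 and Prrx1 values was not tested.

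**Figure D3:**
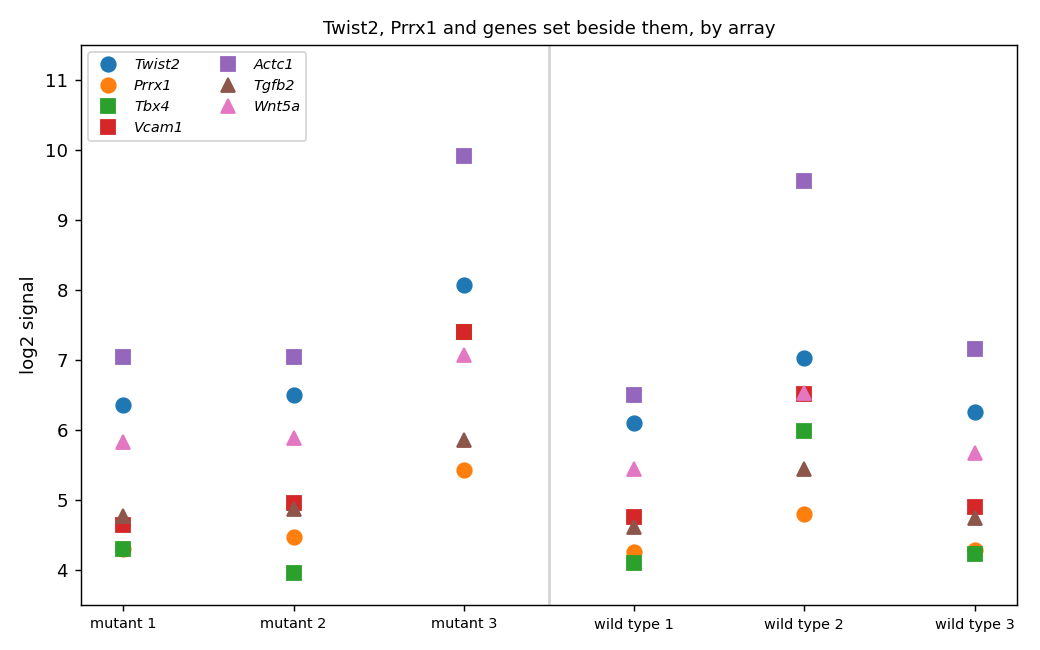
Log2 signal (y axis) on each array (x axis) of Twist2 and Prrx1 (circles), of Tbx4, Vcam1 and Actc1 (squares) and of Tgfb2 and Wnt5a (triangles). All 7 genes are highest in mutant 3 and next highest in wild type 2, for example 7.39 and 5.99 for Tbx4.

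Partners and inputs of the factors were described as lists. Among bHLH partners and Id inhibitors, 5 of 7 genes were higher in the mutants, with a median difference of 0.075 and none past the test. The E protein gene Tcf12, the lowest in p, differed by 0.23 (SE 0.14) at an unadjusted limma p of 0.147 and was highest in mutant 3, at 8.34. Of 26 tested further mesoderm transcription factors, 20 were higher and 6 lower in the mutants, with a median of 0.073 and none past the test. Mef2c, a MADS-box factor of muscle and endothelium, read 6.28 ± 0.097 (SD, n = 3) in the mutants and 6.09 ± 0.092 (SD, n = 3) in wild type and differed by 0.19 at an unadjusted limma p of 0.0737. Mutant 3 was the highest library for 13 of these 26 genes, beside 25.6% of all tested probe sets. The list mean lay 0.33 above wild type in mutant 3, while mutants 1 and 2 lay at −0.0070 and −0.015. That mean includes Tbx4, at 7.39 in mutant 3 and 5.99 in wild type 2. Tbx4 read 3.96 to 4.30 in the other libraries. The dim filter used mean signal, so those high libraries helped Tbx4 to pass it. The list mean without Tbx4 was not computed.

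Of 19 tested BMP and hedgehog genes, 13 were higher and 6 lower in the mutants, with a median of 0.086 and none past the test. Gli3, a transcription factor of the hedgehog pathway, was the lowest in p, with a difference of 0.47 (SE 0.19), an unadjusted limma p of 0.0367 and overlapping groups. It read 5.24, 5.62 and 5.77 in mutants 1 to 3, against 4.79, 5.40 and 5.01 in wild types 1 to 3. Bmp4, a ligand that acts on this mesoderm, read 7.48, 7.82 and 8.14 in mutants 1 to 3, against 7.33, 7.94 and 7.44 in wild types 1 to 3. Bmp4 was thus highest in mutant 3 and next in wild type 2, as Foxf1 was. Ihh, the hedgehog ligand of visceral endoderm, was lowest in those same libraries, at 7.36 in mutant 3 and 7.34 in wild type 2, with 7.47 to 7.74 in the others.

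Markers of mesenchyme and smooth muscle were split between libraries in another proportion. Their list mean was −0.24, 0.22 and 0.28 in mutants 1 to 3, against −0.30, 0.52 and −0.22 in wild types 1 to 3, with 11 of 17 genes higher in the mutants, a median difference of 0.052 and none past the test. The smooth muscle gene Tagln read 6.63, 7.01 and 8.59 in mutants 1 to 3, against 6.11, 8.44 and 6.97 in wild types 1 to 3, high in the same pair of libraries as Twist2. The collagen gene Col1a1 did not: it was lowest in mutant 3, at 10.58, and highest in mutant 2, at 11.51. Fn1, the fibronectin gene and the lowest in p, differed by 0.18 (SE 0.091) at an unadjusted limma p of 0.0869. Its groups did not overlap.

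Endothelium markers were higher in the mutants for 8 of 8 genes, with a median of 0.28 and none past the adjusted test. Of all tested probe sets, 52.4% were higher in the mutants. Groups did not overlap for 4 of the 8 endothelium markers, against 8.55% of all tested probe sets. The list mean was 0.080, 0.26 and 0.50 in mutants 1 to 3, against −0.14, 0.22 and −0.084 in wild types 1 to 3, so mutant 3 and wild type 2 were again the highest of their genotypes. Tie1, Kdr and Tek, receptors of endothelial cells, had differences of 0.28, 0.40 and 0.29 at unadjusted p values of 0.0146, 0.0166 and 0.0237. Primitive erythroid markers had a lower mean in the mutants for 7 of 7 genes, with a median of −0.25 and none past the adjusted test. Of the 7, 4 had groups that did not overlap, beside the same 8.55% of all tested probe sets. The embryonic globin gene Hbb-y and the heme synthesis gene Alas2 had differences of −0.25 and −0.53 at unadjusted p values of 0.0306 and 0.0336. The list mean was −0.088, −0.69 and −0.11 in mutants 1 to 3, against −0.00018, −0.050 and 0.050 in wild types 1 to 3, so mutant 2 was the lowest. Visceral endoderm markers lay between −0.069 and 0.13 on all 6 arrays, with mutant 3 the lowest. Their lowest in p was the apolipoprotein gene Apob, with a difference of 0.15 at an unadjusted limma p of 0.209. The part of these cell types in the members' values was not tested.

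**Figure D4:**
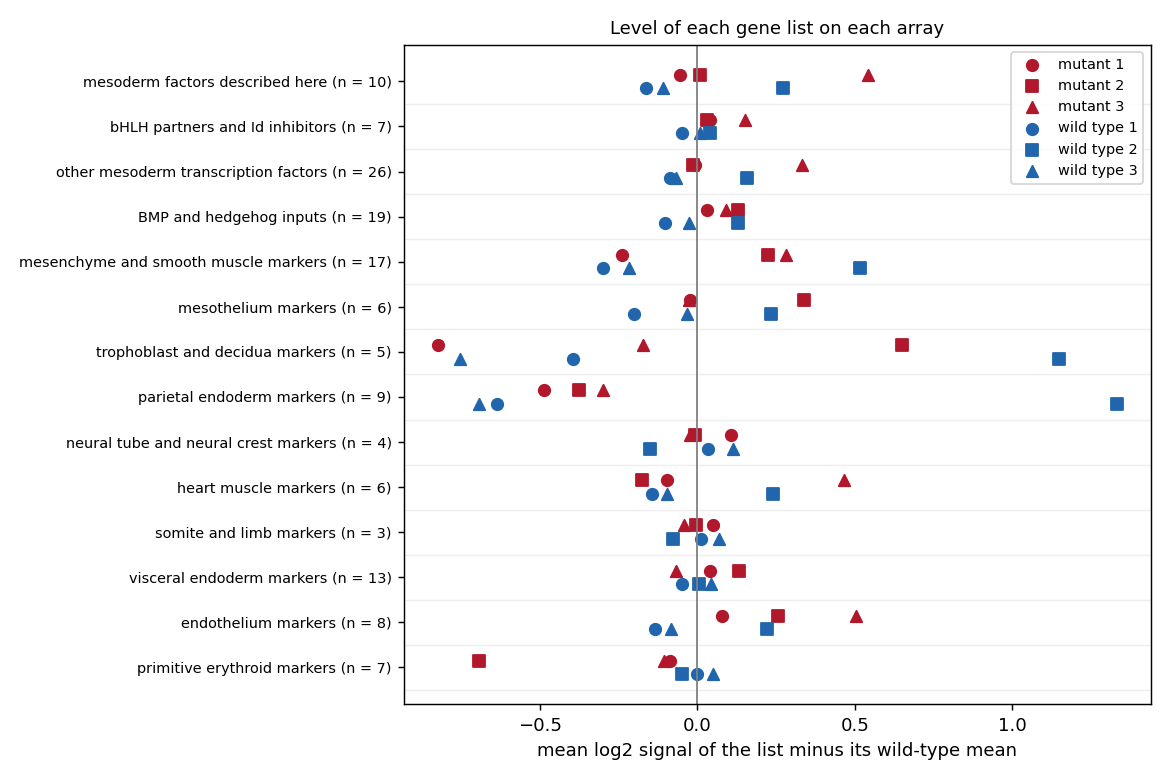
Mean log2 signal of each gene list on each array minus the list's wild-type mean (x axis), for lists of tested genes (y axis, n genes), mutants in red and wild types in blue with 1 symbol for each replicate number. The mesoderm factors are highest in mutant 3, at 0.54, and next in wild type 2, at 0.27, while the parietal endoderm markers reach 1.33 in wild type 2 alone.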

How the data were processed

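Total RNA was biotin-labelled and hybridised to Mouse Gene 1.0 ST arrays, per the labels' protocols. The deposited table holds the authors' processed log2 values, from 0.66 to 13.7, with array medians of 5.19 to 5.22. MAS5 appears in the submitters' processing notes. Beyond that name, no label states the probe summary, background step, normalization or genome build. The log2 scale was therefore inferred from the range, and nothing was renormalized. At most 122 probe sets had equal values on any 2 arrays. Gene names came from the platform's annotation (21789 with 1 symbol, 1621 with several, 12147 with none). The 16387 probe sets tested carry a symbol and reach the 30th percentile of mean signal (4.29), and all 10 members passed. A gene's brightest probe set was used.

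limma 3.58.1 (R 4.3.3) compared the genotypes (mutant minus wild type, no block, 4 residual and 3.47 prior degrees of freedom), adjusting p by Benjamini-Hochberg over the whole tested table at a threshold of 0.05. Exact two-sided permutation tests used 20 label assignments. Precision is limited by having 3 arrays a group, with a median SE of 0.10 (95% interval ± 0.24), and p-values measure only the spread between these yolk sacs. Data were simulated for 3 against 3 arrays, with 200 of 16387 probe sets changed. There, 24.7% of changes of 0.5, 87.2% of changes of 1 and 98.9% of changes of 2 were recovered. Those rates hold for the simulated spread and not for every gene. On the real arrays Tnrc6a, at a difference of −1.99 (SE 0.65), was not called, and the SE of the members reached 0.46 for Twist2. Members, lists and the rule for named genes were chosen with earlier results of these data known. Named were all members, Tnrc6a, in each list up to 3 genes at an unadjusted p under 0.05 with separate groups or else the 1 lowest in p, and the 3 genes most like Hand1, Hand2 and the members' mean. The other genes were named after their values were seen. Alternatives were quantile and median normalization, other dim filters, an intensity trend, array weights, the methods' t-test from the series' design, a replicate block, an Xist covariate, a gene's mean probe set, and fewer arrays.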

Additional observations from a re-analysis of the deposited data

How the results depend on the processing

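No member was called in any of 17 alternatives, and the members' median difference ran from −0.023 to 0.29 when 1 array was left out and from −0.023 to 0.37 over all alternatives. When 1 array was left out, 5 members changed sign: Hand2 ran from −0.017 (without wild type 1; −0.016 without mutant 3) to 0.23, Twist1 from −0.11 to 0.42, Twist2 from −0.029 to 0.82 and Prrx1 from −0.059 to 0.50, the lowest of these 3 without mutant 3, and Pitx1 from −0.56 to 0.076. Hand1 (0.13 to 0.40), Tbx20 (0.14 to 0.60), Tbx3 (0.15 to 0.24), Foxf1 (0.088 to 0.36) and Wt1 (−0.25 to −0.14) did not, nor in the other alternatives in which they were tested. The cause was not tested. Without both wild type 2 and the library labelled mutant 1, 1 probe set was called over the whole table and no member. Prrx1 and Wt1 were too dim for the filter at the 50th percentile.

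The labels do not say whether same-numbered mutant and wild-type arrays are paired. Their deviations from the group means correlated at 0.45, 0.15 and −0.11. With the replicate number as a block, 0 probe sets and 0 members were called, and members at an unadjusted p under 0.05 were Hand1 (0.0454) and Tbx3 (0.0420), which makes 2 against 1 without the block.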
